A study of Saccharomyces cerevisiae with 16 samples.

Results

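The question addressed here was which yeast RNAs responded differently to urea in cells with intact eIF4B and in cells whose eIF4B lacked its N-terminal domain (∆ntd). eIF4B, encoded by TIF3, is a translation initiation factor that promotes recruitment of mRNA to the small ribosomal subunit. All 8 RNAseq libraries of the series were used, out of 16 libraries in all, and the other 8 are footprint libraries from the same cultures. For each gene the strain difference was taken as the log2 response to urea in ∆ntd minus the log2 response to urea in WT, so that a negative value means a lower response in ∆ntd. Of 6692 genes in the deposited table, 5486 had enough counts to be tested.

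A total of 4 groups of 2 independent cultures each were compared: WT and ∆ntd cells in SD medium, a minimal glucose medium with ammonium sulfate, and the same strains in SD with 3% urea. Both strains are MATa haploids of the BY4741 background in which the chromosomal TIF3 gene was deleted. Both carry a single-copy plasmid with the HIS3, LEU2, URA3 and MET15 markers and a His-tagged TIF3 gene, either full length or without the segment for the N-terminal domain, under its native promoter. The urea cultures were inoculated at low density and grew in urea until harvest in mid-log phase, so the values describe growth in urea and not the first minutes of exposure.

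Budding yeast can use urea as a nitrogen source, and at high concentration urea also weakens protein folding and hydrophobic contacts. Genes for poor nitrogen sources are kept low by nitrogen catabolite repression while preferred sources are present. A separate sensor at the plasma membrane, the SPS complex, switches on permease genes when amino acids appear outside the cell. Gcn4 activates amino acid and purine synthesis genes, Msn2 and Msn4 activate the general stress genes through the stress response element, and Ste12 activates mating genes through the pheromone response element.

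Between 1888481 and 5169546 reads were counted on genes per RNAseq library, and the replicate correlations of log2 CPM (a gene's reads in proportion to its library's total after TMM scaling) lay between 0.991 and 0.995. All 7 a-specific genes were detected in every library, from 4.11 CPM for ASG7 in 1 library upwards. Of 4 alpha-specific genes, MF(ALPHA)1 had at most 7 counts in any library, MF(ALPHA)2 at most 1 and STE3 at most 20, whereas SAG1 was present in every library, at 14.5 to 27.5 CPM. TIF3 RNA stood at 2169 and 2340 CPM in WT in SD, 3288 and 3261 CPM in WT in urea, 2044 and 1950 CPM in ∆ntd in SD and 2537 and 2536 CPM in ∆ntd in urea. Its response did not differ detectably between strains (−0.19 ± 0.08 on the log2 scale, SE, adjusted p = 0.141). The gene counts do not resolve which end of TIF3 was read, so they do not check the deletion itself. Counting covers whole cultures, and a change in RNA per cell cannot be told apart from a change in the mixture of cells.

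The response to urea differed between strains for 573 genes, which is 10.4% of the genes tested (edgeR quasi-likelihood test of the interaction, Benjamini-Hochberg adjusted p under 0.05, here termed called). The response was lower in ∆ntd for 333 genes (6.07%) and higher for 240 genes (4.37%). Most of these genes were called for the response in a single strain, which does not show that they were constant in the other. A total of 194 genes were called for the response in WT and not in ∆ntd, of which 126 rose and 68 fell. Another 201 genes were called in ∆ntd and not in WT, of which 86 rose and 115 fell. A further 47 genes changed in opposite directions, with 30 that rose in WT and fell in ∆ntd and 17 that did the reverse. In the same direction but by unequal amounts were 114 genes, and 17 were called in neither strain taken alone.

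These counts stand against a broad response in both strains. In WT 16.1% of the genes tested rose and 12.4% fell in urea, and in ∆ntd 13.4% rose and 12.8% fell. The differences in response were mostly modest, with a median absolute size of 0.56 on the log2 scale among called genes against 0.209 over all genes tested. Only 89 called genes reached an absolute difference of 1 and 20 reached 2. The count depended on the test, since DESeq2 called 260 genes, all of them among the 573, and it was 342 without WT SD replicate 1, 317 without WT SD replicate 2 and 373 without ∆ntd SD replicate 1. When libraries were scaled by their totals alone, 567 genes were called, but 310 of them were positive and 257 negative in place of 240 and 333. That scaling shifted the median response of all genes to −0.113 in WT and −0.0804 in ∆ntd.

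**Figure D1:**
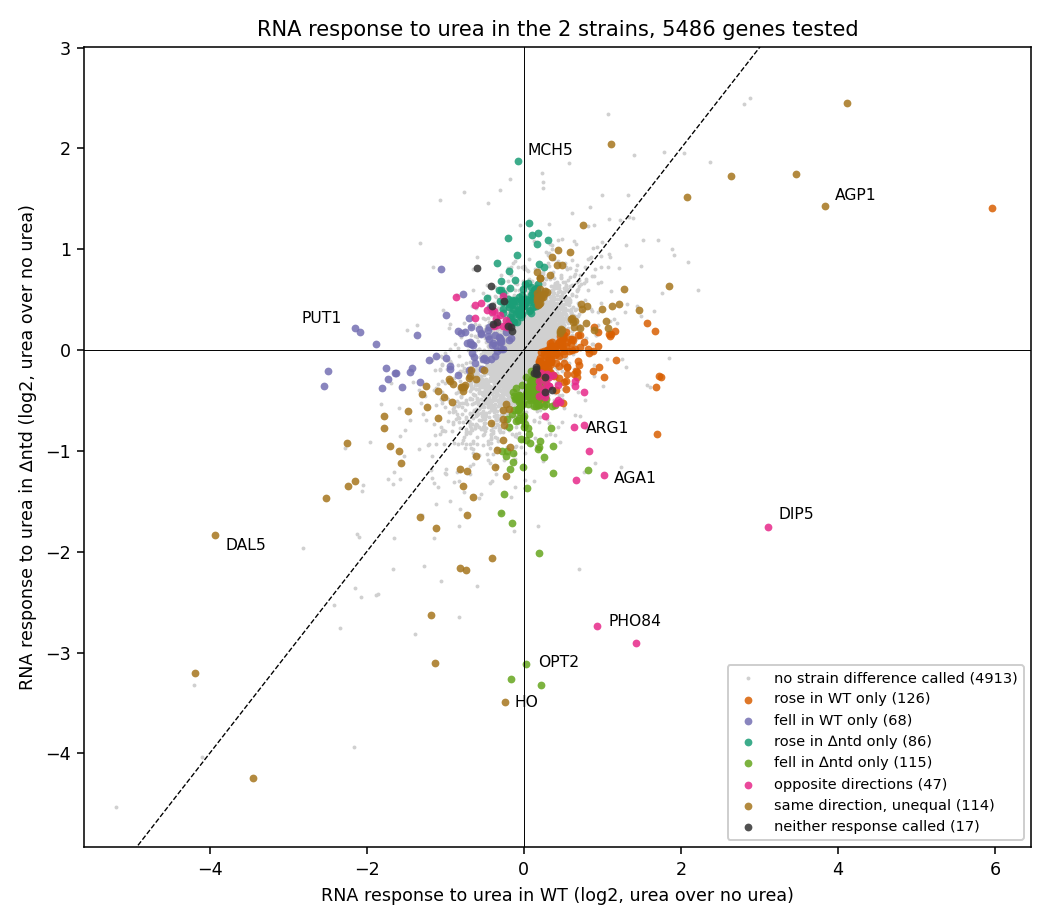
Response of each gene tested to urea in WT (x axis) and in ∆ntd (y axis), both as fitted log2 of urea over no urea. Coloured points are the 573 genes called for the strain difference, by class, and the dashed line marks equal responses. DIP5 and PHO84 lie in the quadrant of genes that rose in WT and fell in ∆ntd.

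The strain difference in response was in part a difference already present without urea. In SD 36.8% of all genes tested differed between ∆ntd and WT, and in urea 43.9% did. Among the 573 genes, 231 differed in both media with the same sign, 190 differed only in urea, 106 only in SD, 41 differed in both media with opposite signs and 5 differed in neither. The 126 genes that rose in WT only had a median strain difference of −0.23 in SD and −0.74 in urea on the log2 scale. The 68 genes that fell in WT only had medians of 0.20 in SD and 0.93 in urea. Which medium carries the difference is therefore given beside the genes below.

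**Figure D2:**
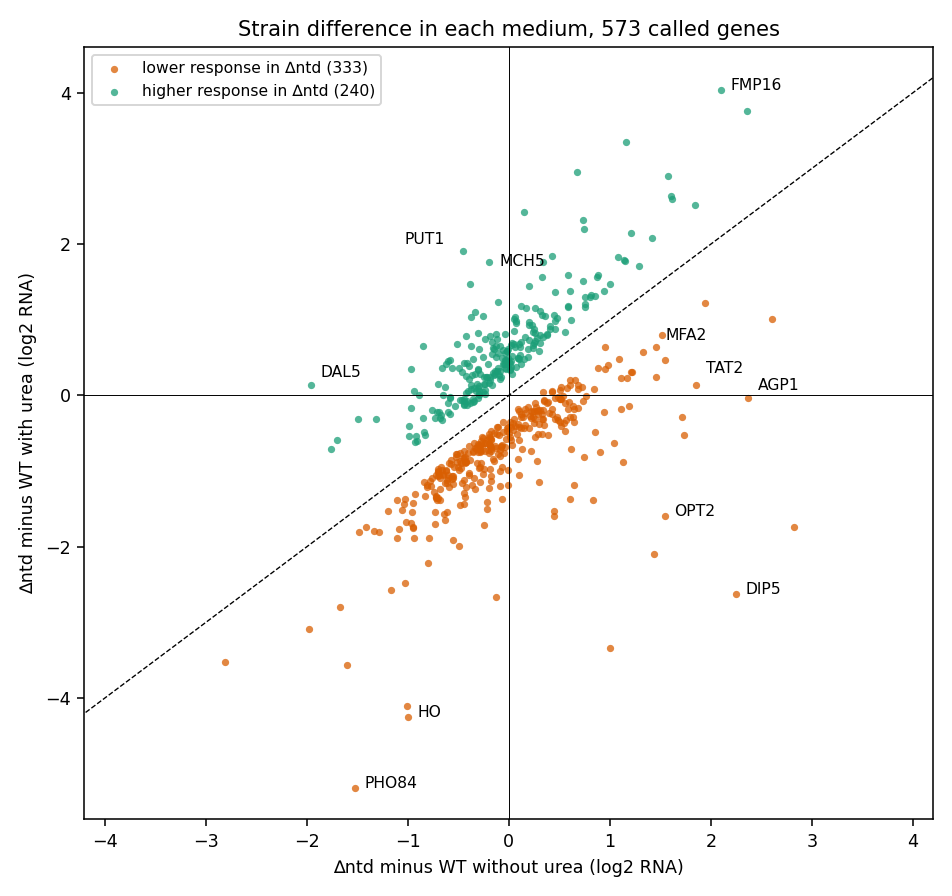
Strain difference, ∆ntd minus WT on the log2 scale, in SD (x axis) and in SD with urea (y axis) for the 573 called genes. Points on the dashed line would have the same strain difference in both media. AGP1, TAT2 and DAL5 lie near 0 in urea, whereas HO and PHO84 lie far below 0 in urea.

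Amino acid permease genes controlled by the SPS sensor showed the largest differences of any list with 4 or more called members. Of 9 tested, 6 were called and all 6 had the lower response in ∆ntd, with a median difference of −1.67 over the list. In WT 7 of the 9 rose and none fell, with a median response of 3.11, whereas in ∆ntd 4 rose and 1 fell, with a median of 0.96. DIP5 (YPL265W), the glutamate and aspartate permease, read 51.5 and 44.7 CPM in WT in SD and 403 and 430 CPM in WT in urea. In ∆ntd it read 224 and 234 CPM in SD and 65.0 and 70.5 CPM in urea. DIP5 thus rose 8.66-fold in WT and fell 3.38-fold in ∆ntd, and its 4 pairs did not overlap (adjusted p for the difference, 2.11e-23).

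AGP1 (YCL025C), a permease of broad specificity, rose in both strains from unequal starting levels. It read 32.1 and 17.3 CPM in WT and 136 and 121 CPM in ∆ntd in SD, then 349 and 361 CPM in WT and 329 and 369 CPM in ∆ntd in urea. The rise was 14.3-fold in WT and 2.70-fold in ∆ntd. The ∆ntd level was 5.17-fold higher in SD, and in urea the pairs overlapped (adjusted p = 0.798). TAT2 (YOL020W), the tryptophan and tyrosine permease, followed the same course, with an 11.1-fold rise in WT from 10.2 and 9.33 CPM and a 3.37-fold rise in ∆ntd from 34.9 and 36.2 CPM. In urea TAT2 stood at 112 and 106 CPM in WT and at 113 and 127 CPM in ∆ntd. For AGP1 and TAT2 the strains differed in SD and not detectably in urea, whereas DIP5 was higher in ∆ntd in SD and 6.17-fold lower in urea.

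Genes under nitrogen catabolite repression moved in both directions. Of 17 permease and regulator genes tested, 3 were called with a higher and 4 with a lower response in ∆ntd, and the median difference was 0.05. None rose in either strain, while 11 fell in WT and 9 in ∆ntd. The count of 7 fell to 3 with DESeq2 and without WT SD replicate 2 or WT urea replicate 2, and to 4 without ∆ntd urea replicate 1.

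PUT1 (YLR142W), the proline oxidase, had the largest positive difference among genes that the rule for named genes took. It fell 4.42-fold in WT, from 101 and 100 CPM to 21.9 and 23.3 CPM. In ∆ntd it read 74.1 and 72.4 CPM in SD and 81.0 and 89.7 CPM in urea, a change that did not pass the test (adjusted p = 0.18). OPT2 (YPR194C), an oligopeptide transporter, did the reverse. It read 14.3 and 12.3 CPM in WT in SD and 13.5 and 13.8 CPM in urea, but fell 8.63-fold in ∆ntd, from 41.0 and 36.7 CPM to 4.93 and 3.94 CPM.

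Among 11 genes for use of allantoin and urea, 2 were called (18.2%, against 10.4% of all genes tested). These were DAL5, with the higher response in ∆ntd, and DUR3, with the lower. DAL5 (YJR152W), the allantoate permease, fell 15.2-fold in WT, from 316 and 325 CPM to 23.9 and 19.0 CPM. In ∆ntd the fall was 3.56-fold, from 83.8 and 80.7 CPM to 20.1 and 26.6 CPM, so that DAL5 differed between strains in SD and not detectably in urea. DUR3 (YHL016C), the high-affinity urea transporter, rose 4.22-fold in WT and 2.87-fold in ∆ntd. It stood at 275 and 292 CPM in WT in urea and at 223 and 210.0 CPM in ∆ntd in urea. The DUR3 call was lost with DESeq2 (adjusted p = 0.06), without WT SD replicate 2 (0.0594) and without ∆ntd SD replicate 1 (0.204).

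**Figure D3:**
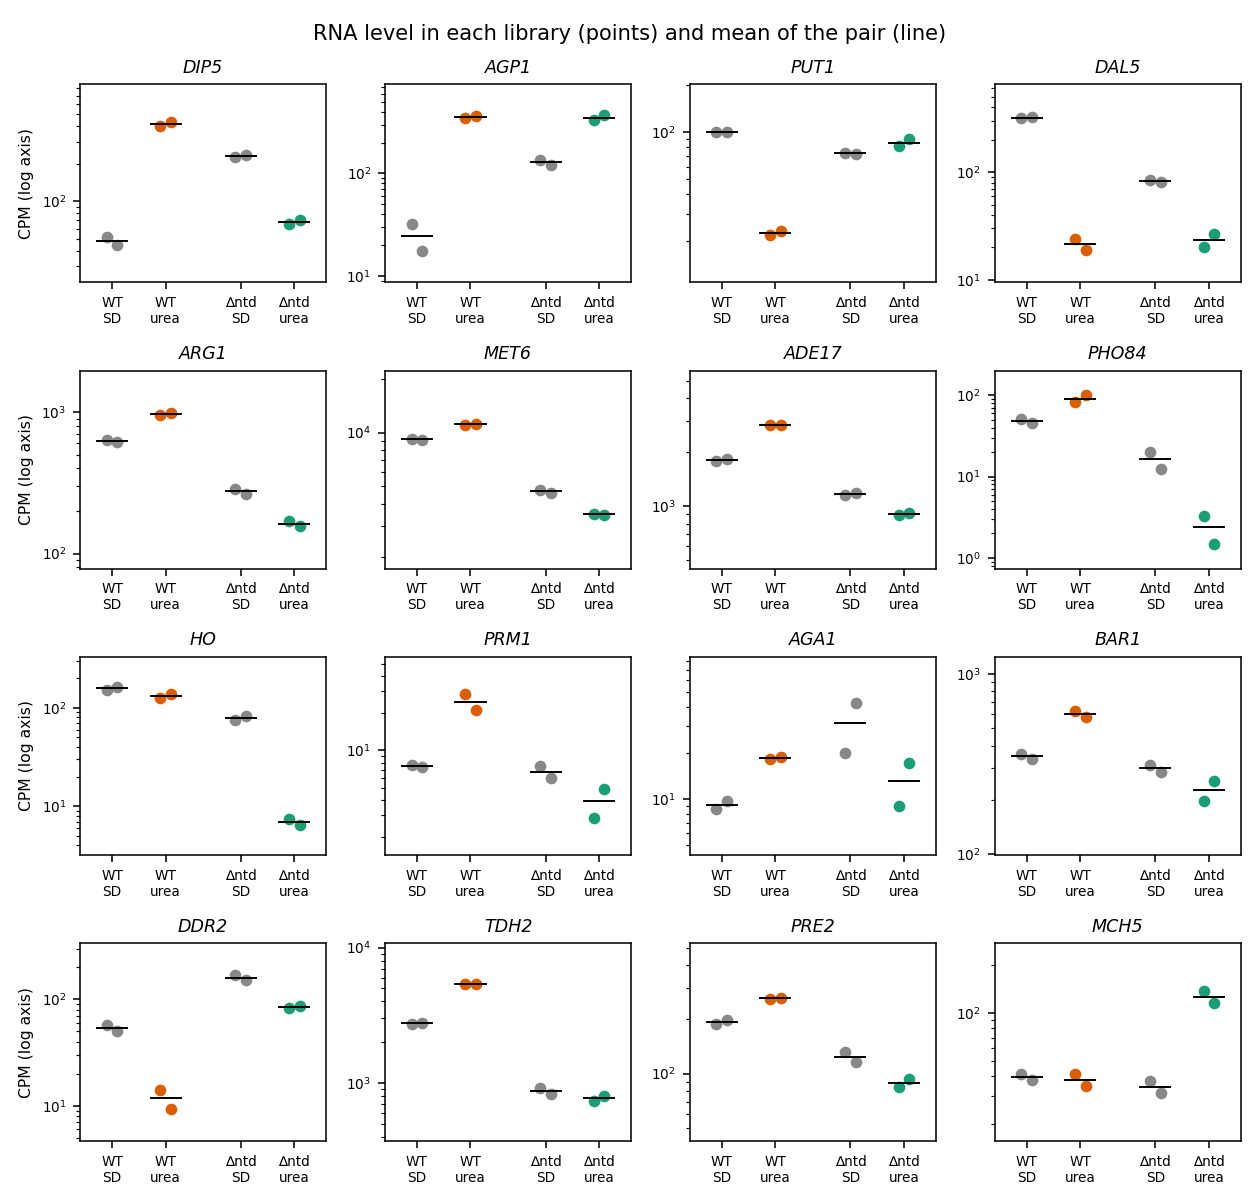
RNA level in CPM, on a log axis, of 16 genes in each of the 8 libraries. Points are single cultures and lines the mean of each pair. DIP5, ARG1, MET6, ADE17, PHO84, AGA1, BAR1 and PRE2 rose in WT and fell in ∆ntd.

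Of 17 purine synthesis and one-carbon genes tested, 13 rose and 2 fell in WT, and 2 rose and 6 fell in ∆ntd. A total of 10 were called for the difference, all with the lower response in ∆ntd, and the median difference over the list was −0.45. Several of these promoters carry the letters TGACTC that Gcn4 binds, and 3 of them are shown, with the match on either strand in capitals. Each is a 30-base stretch upstream of the coding start, written 5′ to 3′ on the coding strand, from the RefSeq copy of the R64 genome. ADE17 lies at chrXIII:509440-509469 on the minus strand, ADE13 at chrXII:844054-844083 on the plus strand and SHM2 at chrXII:259611-259640 on the minus strand.
ADE17: ccagaaatgaatTGACTCctctcataactt
ADE13: cctccgcgagcaGAGTCAaacttcaaacaa
SHM2: accataaaggttTGACTCtatctcttgggt

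ADE17, which encodes the enzyme for the last steps to IMP, rose 1.57-fold in WT, from 1790.4 and 1823 CPM to 2842 and 2848 CPM. In ∆ntd it fell 1.28-fold, from 1151 and 1179 CPM to 897 and 922 CPM. ADE13, the adenylosuccinate lyase gene, rose 1.57-fold in WT and fell 1.24-fold in ∆ntd. SHM2, the cytosolic serine hydroxymethyltransferase gene, rose 1.61-fold in WT and did not pass the test in ∆ntd (adjusted p = 0.221). The promoter windows examined ran from 250 bases before to 50 after the coding start and were known for 5391 genes tested. TGACTC occurred in 13 of the 17 purine promoters and in 8 of the 10 called ones, against 8.35% of all promoters. It occurred in 14.8% of the promoters of called genes with a lower response in ∆ntd and in 6.52% of those with a higher response. GCN4 RNA was itself called, with a difference of 0.42, the reverse sign to the called purine genes. It fell in WT and rose in ∆ntd, a class it did not keep in every alternative. Of the amino acid synthesis genes below, ARG7 and MET22 had TGACTC in the window, while ARG1, LYS20, LYS9, LEU1 and MET6 did not. A match of letters is a description of the window and not a site in use.

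Amino acid synthesis genes were mixed. In the lysine pathway 5 of 9 genes were called, all with a lower response in ∆ntd, and 7 rose in WT against 5 that rose and 1 that fell in ∆ntd. LYS20, a homocitrate synthase gene, rose 2.18-fold in WT and 1.35-fold in ∆ntd, and shares 41.8% of its 40-base windows with another locus, so its level is uncertain. LYS9, the saccharopine dehydrogenase gene, rose 1.23-fold in WT and fell 1.18-fold in ∆ntd. The lysine count was 3 with DESeq2, without WT SD replicate 1, without ∆ntd SD replicate 1 and without ∆ntd urea replicate 1.

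In arginine synthesis 2 genes were called in each direction. ARG1 (YOL058W), argininosuccinate synthase, rose 1.56-fold in WT, from 633 and 613 CPM to 958 and 979 CPM, and fell 1.70-fold in ∆ntd, from 288 and 266 CPM to 169 and 157 CPM. The ∆ntd level of ARG1 was 2.24-fold lower in SD and 5.93-fold lower in urea. ARG7, the mitochondrial ornithine acetyltransferase gene, went the other way, rising 1.28-fold in WT and 1.90-fold in ∆ntd. The arginine count of 4 was 2 without WT SD replicate 2 and without ∆ntd SD replicate 1. LEU1, the isopropylmalate isomerase gene of leucine synthesis, rose 1.25-fold in WT and fell 1.20-fold in ∆ntd.

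Sulfate assimilation and methionine genes accounted for 12 calls among 26 tested, of which 11 had the lower response in ∆ntd. The list was not uniform, since 10 rose and 2 fell in WT while 7 rose and 8 fell in ∆ntd, and the median difference over the list was only −0.09. MET6, the methionine synthase gene and one of the most abundant RNAs here, read 9232 and 9133 CPM in WT in SD and 11105 and 11137 CPM in urea. In ∆ntd it read 4769 and 4594 CPM in SD and 3498 and 3445 CPM in urea, a 1.35-fold fall against the 1.21-fold rise in WT. MET22, a nucleotidase gene needed for methionine synthesis, rose 1.21-fold in WT and fell 1.38-fold in ∆ntd. SUL1, the high-affinity sulfate permease, fell in both strains, by 2.27-fold in WT to 129.8 and 127 CPM and by 6.19-fold in ∆ntd to 23.8 and 22.2 CPM.

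The plasmid markers bear on these values, since the same plasmid supplies HIS3, LEU2, URA3 and the methionine marker in both strains. HIS3 rose in both strains and its responses did not differ detectably (−0.08 ± 0.08, SE, adjusted p = 0.641). LEU2 rose 1.33-fold in WT and fell 1.44-fold in ∆ntd, while URA3 rose 1.26-fold in WT and 1.68-fold in ∆ntd. MET17, the current standard name of MET15, rose 1.14-fold in WT and 1.41-fold in ∆ntd, a difference that was lost with DESeq2 (adjusted p = 0.163) and without any of 6 libraries in turn (0.0617 to 0.195). The markers of this plasmid thus responded unequally.

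Of 7 a-specific genes, 4 rose in WT and none fell, whereas in ∆ntd none rose and 4 fell, and 5 were called for the difference, all with the lower response in ∆ntd. Of 19 pheromone-induced genes tested, 7 were called in the same direction, with 9 that rose and 1 that fell in WT and none that rose and 3 that fell in ∆ntd. The 8 genes of the pheromone MAP kinase cascade, which carry the signal, had a median difference of −0.10, with 0 called by edgeR or DESeq2 and 1 at an unadjusted p under 0.05. The response elements of 5 of the called genes are shown because they share the letters TGAAACA, in capitals on either strand. The stretches lie at chrXIV:110736-110765 (PRM1), chrIII:27773-27802 (KAR4), chrXIV:703486-703515 (AGA1), chrIX:322147-322176 (BAR1) and chrXIV:352208-352237 (MFA2), all on the plus strand of R64.
PRM1: TGTTTCAatacTGTTTCAatacTGTTTCAg
KAR4: ctctgtagtctTGTTTCAcacttcgtcatt
AGA1: acataattttcTGAAACAatattaaaacat
BAR1: gccagctattcTGAAACAcaccacattata
MFA2: aggaacgaaaaTGAAACAtgcatgtcagag

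PRM1, a membrane protein gene of mating cell fusion whose promoter window holds 3 such matches, rose 3.24-fold in WT, from 7.63 and 7.33 CPM to 28.3 and 21.2 CPM. In ∆ntd it read 7.55 and 5.96 CPM in SD and 2.88 and 4.93 CPM in urea, which did not pass the test (adjusted p = 0.17). The strains did not differ detectably for PRM1 in SD, and in urea ∆ntd was 6.32-fold lower. KAR4, a transcription factor gene needed for nuclear fusion, rose 2.14-fold in WT and did not pass the test in ∆ntd (adjusted p = 0.531). AGA1, the anchor subunit of a-agglutinin, rose 2.03-fold in WT to 18.2 and 18.7 CPM and fell 2.37-fold in ∆ntd, with widely spaced values of 20.1 and 42.6 CPM in SD and 9.05 and 17.3 CPM in urea.

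BAR1, the secreted protease that degrades alpha factor, rose 1.71-fold in WT, from 361 and 337 CPM to 618 and 574 CPM, and fell 1.34-fold in ∆ntd, from 313 and 285 CPM to 198 and 253 CPM. STE2, the alpha-factor receptor, rose 1.25-fold in WT and fell 1.28-fold in ∆ntd. MFA2, one of the a-factor genes, differed mainly through SD. It read 126 and 118 CPM in WT in SD and 125 and 128 CPM in urea, and it fell 1.70-fold in ∆ntd from 357 and 312 CPM to 183 and 213 CPM. TGAAACA occurred in 5 of the 5 called a-specific promoters and in 6 of the 7 called pheromone-induced promoters, against 7.36% of all promoters. Members of these lists that were not called are not counted here, so the shares do not set called members apart from the rest. Among all called genes it occurred in 11.5% of the promoters with a lower response in ∆ntd and in 3.48% of those with a higher response.

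Of 20 general stress genes tested, 14 were called, 13 with the higher response in ∆ntd, and the median difference was 0.77. In WT 16 fell and none rose, with a median response of −0.85, whereas in ∆ntd 4 rose and 5 fell, with a median of −0.003. The list was already 1.03 higher (median, log2) in ∆ntd than in WT in SD and 1.96 higher in urea. DDR2 and ALD3 are shown for the stress response element, AGGGG on either strand in capitals, at chrXV:231976-232005 and chrXIII:601093-601122, both on the minus strand of R64.
DDR2: atCCCCTttctctcctaaaataatcctttt
ALD3: tgttgatcagcCCCCTtcttaagctgattg

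DDR2, a stress-induced gene with 3 such matches in its window, fell 4.77-fold in WT, from 56.9 and 50.7 CPM to 14.2 and 9.26 CPM. In ∆ntd it fell 1.90-fold, from 168 and 153 CPM to 83.9 and 85.8 CPM, so all 4 ∆ntd libraries lay above the WT libraries. ALD3, a stress-induced aldehyde dehydrogenase gene, fell 1.79-fold in WT and did not pass the test in ∆ntd (adjusted p = 0.239). Its counts are uncertain because 44.8% of its 40-base windows recur elsewhere. FMP16, a mitochondrial protein gene outside the list, fell 3.68-fold in WT, from 11.4 and 13.7 CPM to 3.03 and 3.61 CPM, and read 54.3 and 53.6 CPM in SD and 60.0 and 52.2 CPM in urea in ∆ntd.

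AGGGG occurred in 12 of the 20 stress promoters and in 10 of the 14 called ones, against 21.7% of all promoters. Among the called genes that fell in WT only, 40.3% carried it, and among all called genes the share was 30.0% with a higher and 16.6% with a lower response in ∆ntd. The chaperone genes of the Hsp70, Hsp90 and Hsp104 families did not share the pattern. Of 21 tested, 15 rose in WT and 13 in ∆ntd, and only 1 was called for the difference. In the same edgeR test 10 of the 21 had an unadjusted p under 0.05, against 1258 of the 5486 genes tested. The few calls therefore do not show equal responses. The difference was positive for 12 and negative for 9. The count of general stress genes was 9 with DESeq2.

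Of 138 cytosolic ribosomal protein genes tested, 44 were called and all had the higher response in ∆ntd, with a median difference of 0.19. In WT 90 rose and none fell, with a median response of 0.22, and in ∆ntd 126 rose and 1 fell, with a median of 0.44. With TMM scaling the list's median strain difference was −0.15 in SD and 0.06 in urea. The signs of these small values depend on the scaling. In SD the TMM factors were 0.943 and 0.931 in WT and 1.13 and 1.153 in ∆ntd. In urea they were 0.873 and 0.857 in WT and 1.089 and 1.075 in ∆ntd. RPP2A, an acidic stalk protein gene, rose 1.13-fold in WT and 1.72-fold in ∆ntd, from 1028 and 1091 CPM to 1190 and 1194 CPM in WT and from 838 and 776 CPM to 1414 and 1359 CPM in ∆ntd.

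RPS29A read 173 and 178 CPM in SD and 168 and 180 CPM in urea in WT and rose 1.52-fold in ∆ntd, from 175 and 170 CPM to 290 and 233 CPM. RPL35A rose 1.37-fold in ∆ntd and did not pass the test in WT (adjusted p = 0.143), and 32.5% of its windows recur in its paralog. RPL41B rose 2.23-fold in ∆ntd to 690 and 472 CPM, against 327 and 347 CPM in WT in urea, but 76.9% of its windows recur and the call was lost with DESeq2 (adjusted p = 0.0631). Most yeast ribosomal protein genes are paired, and reads shared by a pair were not counted. The count of 44 was 28 with DESeq2 and 23 without WT SD replicate 2.

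Other genes of the translation apparatus gave few calls, too few outside the aminoacyl-tRNA synthetases to give the groups a direction. Over all genes tested, 6.07% were called with a lower response in ∆ntd, and here only the aminoacyl-tRNA synthetases exceeded that share (20%). Of 103 ribosome biogenesis factors 3 were called (2.91%), and of 75 mitochondrial ribosomal proteins 1 was (1.33%). Of 28 translation initiation factors 1 was called (3.57%), and all these calls had a lower response in ∆ntd. In WT 58 biogenesis factors rose and none fell, and in ∆ntd 30 rose and 1 fell. Of 20 aminoacyl-tRNA synthetase genes, 16 rose in WT and 9 in ∆ntd, and 4 were called with the lower response in ∆ntd, or 2 without WT SD replicate 1.

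Of 22 glycolysis and fermentation genes tested, 11 were called, 10 of them with the lower response in ∆ntd, and 13 rose and 2 fell in WT while 4 rose and 4 fell in ∆ntd. TDH2, a glyceraldehyde-3-phosphate dehydrogenase gene, rose 1.94-fold in WT, from 2741 and 2782 CPM to 5343 and 5375 CPM. In ∆ntd it read 912 and 823 CPM in SD and 742 and 808 CPM in urea (adjusted p = 0.0585 for the response). The ∆ntd level of TDH2 was 3.18-fold lower in SD and 6.92-fold lower in urea. Its paralog TDH1 did the reverse, falling 1.93-fold in WT and 1.22-fold in ∆ntd, and 39.8% and 19.7% of the windows of TDH2 and TDH1 recur, so both levels are uncertain.

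HXK2, the main hexokinase gene in glucose, rose 1.64-fold in WT and read 732 and 663 CPM in SD and 702 and 721 CPM in urea in ∆ntd. GPM1, phosphoglycerate mutase, rose 1.15-fold in WT and fell 1.24-fold in ∆ntd. The low-affinity glucose transporter gene HXT1 rose 1.92-fold in WT, from 404 and 391 CPM to 758 and 771 CPM, and read 529.5 and 508 CPM in SD and 542 and 523 CPM in urea in ∆ntd. HXT4, which encodes a transporter of higher affinity, fell 1.85-fold in ∆ntd and did not pass the test in WT (adjusted p = 0.872). Hexose transporters thus gave 3 calls among 8 tested (37.5%), all with the lower response in ∆ntd, against 6.07% of all genes tested. The glycolysis count was 7 without WT SD replicate 1.

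Enzymes at the start of the TCA cycle had lower responses in ∆ntd. IDH1 and IDH2, the subunits of isocitrate dehydrogenase, rose 1.84-fold and 1.59-fold in WT and did not pass the test in ∆ntd (adjusted p = 0.152 and 0.0624). ACO1, aconitase, did not pass the test in WT (adjusted p = 0.0658) and fell 2.16-fold in ∆ntd. Of 21 TCA cycle and retrograde genes, 6 were called with a lower and 1 with a higher response in ∆ntd. Of 14 osmotic stress and glycerol genes, 3 were called (21.4%), all with the lower response in ∆ntd, against 6.07% of all genes tested. In WT 6 rose and 1 fell, against 2 that rose and 1 that fell in ∆ntd. Among the called genes, GPP1, a glycerol phosphatase, rose 1.78-fold and GPD2, a glycerol-3-phosphate dehydrogenase, rose 1.46-fold in WT, and neither passed the test in ∆ntd (adjusted p = 0.822 and 0.104).

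Of 8 protein genes of the mitochondrial genome tested, 7 fell in WT and 1 fell in ∆ntd, and 5 were called for the difference, all with the higher response in ∆ntd. COX3, a cytochrome c oxidase subunit, fell 1.29-fold in WT, from 640 and 597 CPM to 457 and 501 CPM, and read 1071 and 1104 CPM in SD and 1216 and 1194 CPM in urea in ∆ntd. COX2 and ATP6, another oxidase subunit and a subunit of the ATP synthase, fell 1.32-fold and 1.24-fold in WT and did not pass the test in ∆ntd (adjusted p = 0.511 and 0.179), although without ∆ntd urea replicate 2 both passed it as rises in ∆ntd. All 8 had a positive difference, with a median of 0.40. The count was 3 without WT SD replicate 1.

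The nuclear genes for the respiratory chain and ATP synthase fell in both strains, 36 of 39 in WT and 26 of 39 in ∆ntd. Of the 39, 5 were called (12.8%, against 10.4% of all genes tested). Each had the higher response in ∆ntd, as had 4.37% of all genes tested. None of these 5 calls remained with DESeq2 or without WT SD replicate 1. By chromosome, 9 of 19 mitochondrial genes tested were called (47.4%), of which 4 lie within the spans of COX1 or COB and cannot be told apart from them. The share on nuclear chromosomes ran from 2.63% on chromosome I to 13.5% on chromosome III, with median differences between −0.045 and 0.019. Within 25 kb of a chromosome end, 15.3% of 163 genes were called.

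**Figure D4:**
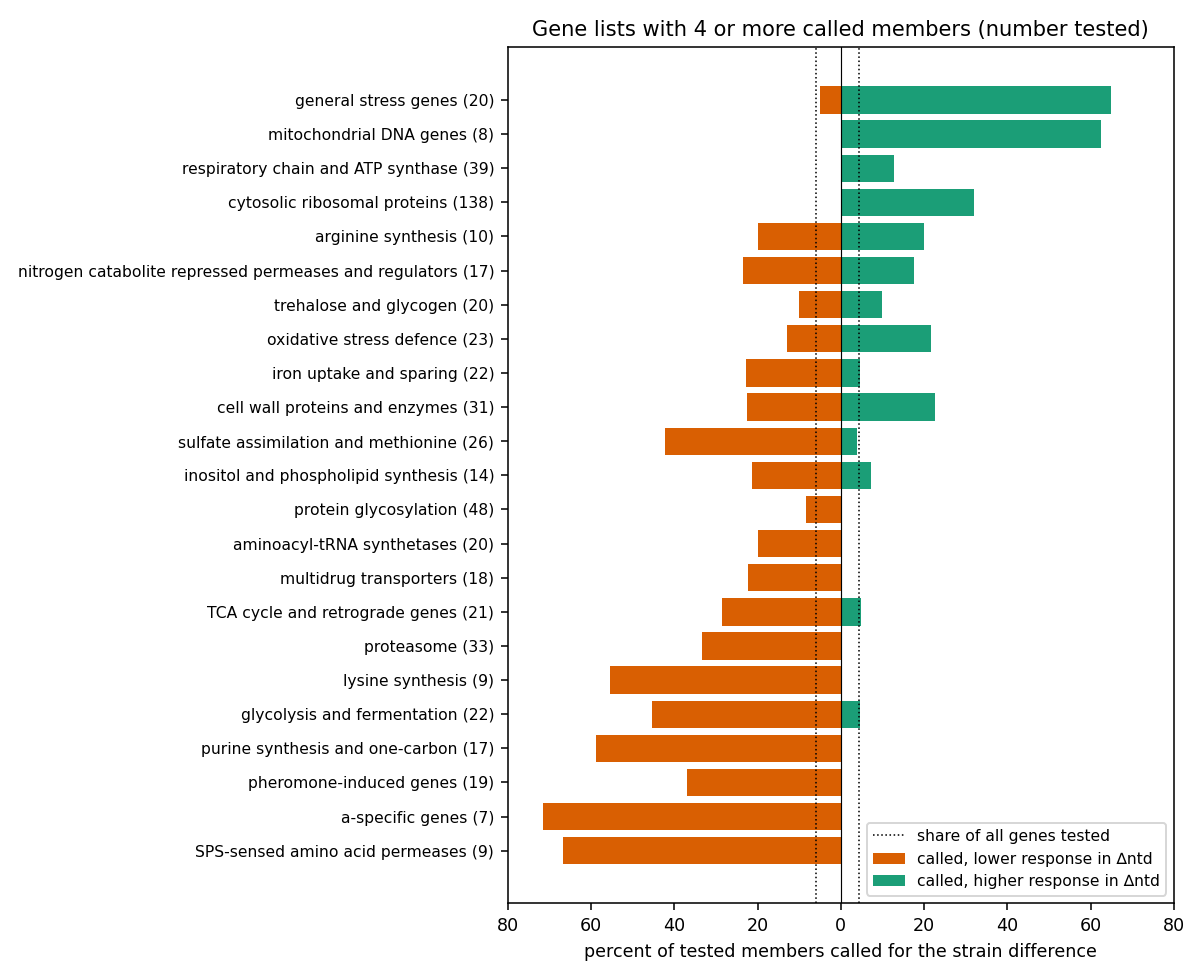
Share of the tested members of each gene list called for the strain difference, in percent, with a lower (left) or higher (right) response in ∆ntd. Dotted lines mark the shares over all genes tested, 6.07% and 4.37%. SPS-sensed permeases, a-specific genes and purine synthesis reach farthest to the left and general stress genes farthest to the right.

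Of 33 proteasome genes tested, 20 rose and none fell in WT, while 4 rose and 4 fell in ∆ntd. A total of 11 were called, all with the lower response in ∆ntd, and 31 of 33 had a negative difference. PRE2, a catalytic subunit of the core particle, rose 1.36-fold in WT, from 189 and 198 CPM to 260.2 and 265 CPM, and fell 1.40-fold in ∆ntd, from 131 and 116 CPM to 84.3 and 93.2 CPM. RPN11, the deubiquitinating subunit of the lid, and RPT1, an ATPase of the base, rose 1.43-fold and 1.37-fold in WT and did not pass the test in ∆ntd (adjusted p = 0.352 and 0.156). RPT2, another ATPase, rose 1.29-fold in WT and fell 1.19-fold in ∆ntd. The count of 11 was 5 with DESeq2, 6 with scaling by library totals and between 5 and 9 with a library left out, lowest without WT urea replicate 1 and without ∆ntd SD replicate 1.

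Cell wall genes fell in both strains, 25 of 31 in WT and 21 of 31 in ∆ntd, and 7 were called in each direction. PIR3, a covalently bound wall protein gene, fell 3.10-fold in WT, from 33.7 and 34.3 CPM to 10.1 and 11.5 CPM, and did not pass the test in ∆ntd (adjusted p = 0.312). CWP1, a mannoprotein gene, rose 1.20-fold in WT and fell 1.57-fold in ∆ntd, and TIP1, another mannoprotein gene, fell 1.26-fold in WT and 1.99-fold in ∆ntd. The count of 14 was 9 with DESeq2 and 8 without WT SD replicate 1. Multidrug transporters gave 4 calls among 18 (22.2%), all with the lower response in ∆ntd, against 6.07% of all genes tested. AQR1 and ATR1, both of the major facilitator family, rose 2.77-fold and 1.85-fold in WT, against 1.32-fold for AQR1 in ∆ntd and no change past the test for ATR1 (adjusted p = 0.974). PDR5, an ABC transporter, fell 1.20-fold in WT and 1.86-fold in ∆ntd.

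PHO84 (YML123C), the high-affinity phosphate transporter, rose 1.91-fold in WT, from 50.6 and 45.3 CPM to 81.6 and 99.8 CPM, and fell 6.67-fold in ∆ntd, from 20.1 and 12.4 CPM to 3.29 and 1.48 CPM. In urea its ∆ntd level was 36.6-fold lower than in WT and rested on 8 and 3 counts. Of 14 phosphate genes tested, 3 were called (21.4%), all with the lower response in ∆ntd, against 6.07% of all genes tested. With DESeq2 1 was called, and the count also depended on single libraries. PHO84 was called in the 16 alternatives that tested it, and a minimum of 10 counts in every library removed it.

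The siderophore transporter genes ENB1 and ARN1 moved oppositely. ENB1 rose 2.98-fold in WT, from 88.1 and 71.3 CPM to 221 and 252 CPM, and did not pass the test in ∆ntd (adjusted p = 0.111). ARN1 fell 2.17-fold in WT and read 48.2 and 59.1 CPM in SD and 44.8 and 58.2 CPM in urea in ∆ntd. Of 22 iron genes 6 were called (27.3%, against 10.4% of all genes tested). With DESeq2 2 were called, and the count also depended on single libraries. BIO2, biotin synthase, and VHT1, the biotin transporter, rose 2.15-fold and 1.59-fold in WT and did not pass the test in ∆ntd (adjusted p = 0.488 and 0.0849).

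Several genes with large differences belonged to none of these lists. HO (YDL227C), the mating-type switching endonuclease, fell 1.18-fold in WT, from 150.4 and 163 CPM to 126 and 138 CPM, and 11.2-fold in ∆ntd, from 75.5 and 81.6 CPM to 7.40 and 6.41 CPM. MCH5 (YOR306C), the riboflavin transporter, read 41.3 and 37.7 CPM in WT in SD, 41.5 and 34.8 CPM in WT in urea and 37.4 and 31.2 CPM in ∆ntd in SD, and rose 3.68-fold to 137 and 116 CPM in ∆ntd in urea. For MCH5 only the ∆ntd urea pair stood apart.

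RGI1, a gene of respiratory growth, rose 1.77-fold in WT and fell 2.00-fold in ∆ntd. PDH1, a gene of propionate metabolism, rose 1.59-fold in WT and fell 2.45-fold in ∆ntd, where it read 4.52 and 3.94 CPM in urea. ATO3, which encodes a putative ammonium exporter, rose 1.70-fold in WT and fell 1.67-fold in ∆ntd. These 3 genes, like DIP5, ARG1, PHO84 and AGA1, changed in opposite directions in the strains. In RGI1, PDH1, ATO3 and AGA1 the response of one strain no longer passed the test without at least 1 of the libraries. Of the 47 opposite genes, 12 were tested in all 17 alternatives and kept that class in each, among them DIP5, ARG1, ADE13, ADE17, LEU1, MET6, PRE2 and STE2, and 22 kept it with DESeq2.

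The footprints of the same cultures were read for the same genes as another readout, not as a repeat, since each footprint library shares its extract with an RNA library. Of the 573 genes, 558 could be tested for footprints, and 469 of them had a footprint difference of the same sign (84.05%), against 59.98% of the 4693 genes not called in RNA. For footprints 8.36% of 5286 genes were called, 442 in all. A total of 159 of the 558 were among them, 158 with the same sign. Of 45 tested genes of opposite direction in RNA, 39 kept the sign of the difference.

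The permease DIP5 read 26.5 and 28.4 footprint CPM in WT in SD and 317 and 326 in urea, and in ∆ntd 158 and 148 in SD and 45.5 and 57.3 in urea, so footprints moved as RNA did. The footprint difference was −3.76 on the log2 scale for PHO84 (adjusted p = 9.49e-05), −3.06 for HO (0.0019), −3.90 for PRM1 (0.022), −1.60 for BAR1 (0.0132) and 2.08 for MCH5 (0.0107). Not all RNA differences passed the test in footprints. ARG1 had a footprint difference of −0.96 (adjusted p = 0.141), LEU2 of −0.24 (0.494) and MFA2 of −0.37 (0.337).

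The ∆ntd urea footprint pair was the most uneven, with an SD of the log2 difference between replicates of 0.559 over genes tested, against 0.187 to 0.342 in the other pairs. The count of 442 footprint calls was 2589 without ∆ntd urea replicate 1, 1527 without ∆ntd urea replicate 2 and 12 to 15 without any other library. The values given for single genes in footprints carry that limit.

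**Figure D5:**
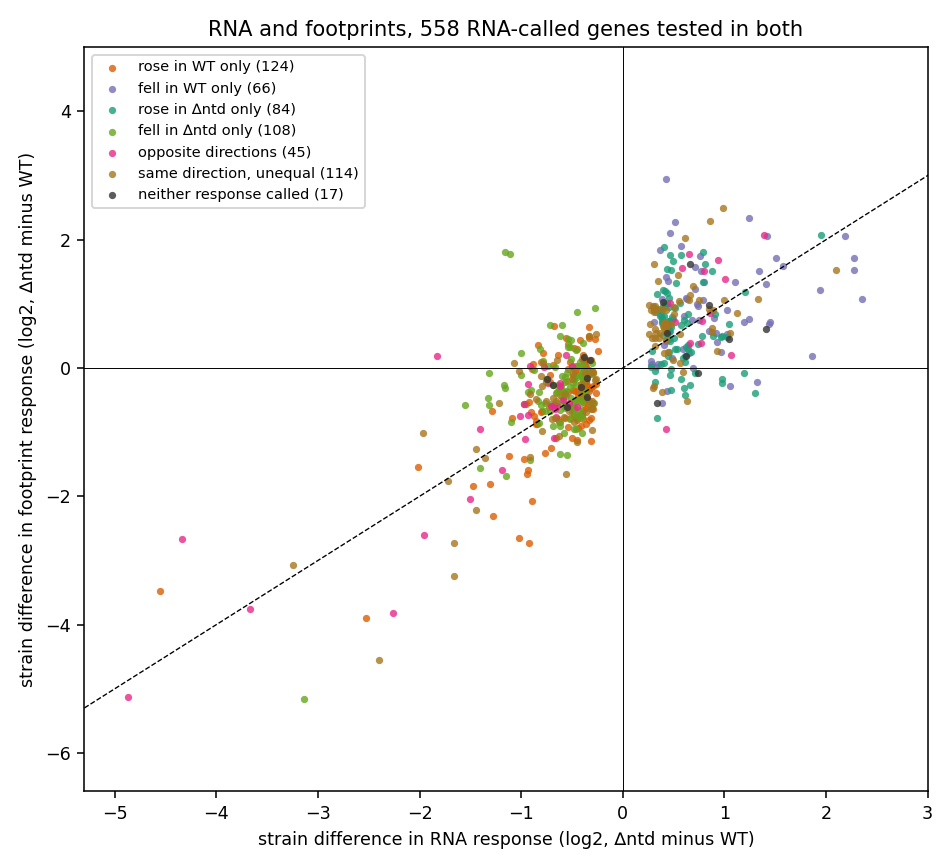
Strain difference in the response to urea in RNA (x axis) and in ribosome footprints (y axis), both as log2 ∆ntd minus WT, for the 558 RNA-called genes tested in both, by class of RNA response. The dashed line marks equal values, and 469 points have the same sign on both axes.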

How the data were processed

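RNA of 8 cultures and ribosome footprints of the same cultures were deposited as whole-number counts per gene, without normalization. Per the study's methods and labels, the authors depleted rRNA, trimmed linkers with Cutadapt 1.1, removed non-coding RNAs with Bowtie 1.1, aligned reads to the SGD transcriptome (sacCer3) with Bowtie 0.1.3 and counted uniquely mapped reads, so near-identical genes lose reads. Use of strand in counting is not given in the sources used here. A further 24 columns hold the authors' own fold changes and false discovery rates and were not used.

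Counts were tested in R 4.3.3 with edgeR 4.0.16 (filterByExpr, TMM scaling, glmQLFit and glmQLFTest, prior count 0.125) with a mean for each group, all 8 RNA libraries sharing one estimate of spread. P-values were adjusted by Benjamini-Hochberg over the 5486 genes tested, or 5286 for footprints. A gene that responded in one strain only was called for the strain difference and for the response in that strain, with an adjusted p of 0.05 or more in the other, which does not show that it was constant there. Alternatives used DESeq2 1.42.0, limma-voom (limma 3.58.1), other scalings and filters, thinning, a replicate block and each library left out. Rank tests of 2 against 2 cultures cannot go below 0.333. Reads carry no molecular identifiers.

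The 59 gene lists, the motifs and the rule for named genes were chosen with earlier results of these data known. Among called genes whose 4 differences between cultures lie beyond those of the other strain, with a mean of at least 20 counts in a group, the rule took the 8 largest differences in each direction, up to 8 of opposite direction, 3 of the same direction and up to 4 from each list with 2 or more called members. It adds the plasmid-borne genes. GCN4 is given outside this rule and is not among the genes counted as described. The text describes 70 of the genes so taken, mostly leaving out genes whose call was lost in an alternative, genes at or under the floor of 3 counts in a group, and Ty genes. Promoters and positions come from the RefSeq R64 genome, which placed 5410 of the genes tested. A gene is uncertain where its 40-base windows recur in the genome.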

Additional observations from a re-analysis of the deposited data

Results flagged for a closer look

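The response to urea differed between strains, by a test of the difference itself, for 573 genes, and all values here are that difference on the log2 scale (∆ntd minus WT), with their standard errors from 2 cultures a group. Groups of 2 cultures are too small to look for a culture far from the others. Among nitrogen genes the differences were −4.87 ± 0.13 for DIP5, −2.40 ± 0.17 for AGP1, −1.72 ± 0.22 for TAT2, −3.14 ± 0.38 for OPT2 and −0.56 ± 0.14 for DUR3, and 2.36 ± 0.17 for PUT1 and 2.10 ± 0.22 for DAL5. Amino acid synthesis genes had differences of −1.40 ± 0.10 (ARG1), 0.57 ± 0.10 (ARG7), −0.68 ± 0.10 (LYS20), −0.53 ± 0.08 (LYS9), −0.59 ± 0.08 (LEU1), −0.71 ± 0.08 (MET6), −0.74 ± 0.12 (MET22) and, for the sulfate permease SUL1, −1.44 ± 0.16. Purine and one-carbon genes had −1.01 ± 0.08 (ADE17), −0.96 ± 0.09 (ADE13) and −0.79 ± 0.09 (SHM2).

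The mating genes named had negative values, of −2.53 ± 0.51 (PRM1), −2.26 ± 0.43 (AGA1), −0.96 ± 0.20 (KAR4), −1.19 ± 0.12 (BAR1), −0.82 ± 0.12 (MFA2) and −0.68 ± 0.10 (STE2). They were taken from called members, and 2 of the 19 pheromone-induced genes tested had a positive difference. The stress and mitochondrial genes named had positive values, of 1.33 ± 0.21 (DDR2), 1.03 ± 0.22 (ALD3), 1.94 ± 0.34 (FMP16), 0.51 ± 0.09 (COX3), 0.46 ± 0.10 (COX2) and 0.44 ± 0.10 (ATP6). So did the ribosomal protein genes, with 0.97 ± 0.16 (RPL41B), 0.61 ± 0.12 (RPS29A), 0.61 ± 0.09 (RPP2A) and 0.60 ± 0.11 (RPL35A).

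Carbon metabolism genes had −1.12 ± 0.09 (TDH2), −0.69 ± 0.09 (HXK2), −0.50 ± 0.08 (GPM1), 0.66 ± 0.08 (TDH1), −1.09 ± 0.13 (IDH1), −0.88 ± 0.11 (IDH2), −0.97 ± 0.08 (ACO1), −0.91 ± 0.09 (HXT1), −0.92 ± 0.16 (HXT4), −0.85 ± 0.09 (GPP1) and −0.79 ± 0.14 (GPD2). Proteasome genes had −0.93 ± 0.13 (PRE2), −0.64 ± 0.13 (RPN11), −0.62 ± 0.11 (RPT2) and −0.61 ± 0.10 (RPT1). Cell wall and drug transporter genes had 1.41 ± 0.25 (PIR3), −0.92 ± 0.15 (CWP1), −0.65 ± 0.13 (TIP1), −1.07 ± 0.15 (AQR1), −0.89 ± 0.18 (ATR1) and −0.63 ± 0.09 (PDR5).

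Phosphate, iron and vitamin genes had −3.67 ± 0.42 (PHO84), −1.30 ± 0.16 (ENB1), 1.06 ± 0.20 (ARN1), −0.94 ± 0.19 (BIO2), −0.94 ± 0.15 (VHT1) and 1.95 ± 0.20 (MCH5). The plasmid markers had −0.93 ± 0.08 (LEU2), 0.42 ± 0.10 (URA3) and 0.31 ± 0.10 (MET17). The remaining genes had −3.24 ± 0.23 (HO), −1.83 ± 0.29 (RGI1), −1.96 ± 0.41 (PDH1) and −1.50 ± 0.24 (ATO3).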

How the results depend on the processing

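No called gene changed the sign of its strain difference under any of the 17 alternatives for RNA. That outcome was close to fixed in advance and is little evidence of robustness. For 572 of the 573 called genes, every urea-minus-SD difference between cultures in one strain lay beyond all those in the other. Leaving out a library could therefore hardly reverse the sign, and the other alternatives used the same libraries. Of all 573 called genes, 203 were tested in all 17 alternatives and kept their call in each. Of the 68 called genes described, 65 kept their call in each alternative that tested them, the exceptions being DUR3, RPL41B and MET17. That share follows largely from the choice of genes, since genes that lost their call were mostly left out. A minimum of 10 counts in every library removed OPT2, PHO84, PRM1, FMP16 and PDH1, which leaves 16 alternatives for these 5. The counts moved more. With DESeq2 in place of edgeR, 260 genes were called (110 positive, 150 negative), with 96 that responded in WT only, 81 in ∆ntd only and 22 in opposite directions, and 924 responded in WT, 849 in ∆ntd and 1299 differed between strains without urea. Of the 573 genes, 89 had an absolute difference of at least 1 and 279 an adjusted p under 0.01. With 1 library left out, a fit in which the lone culture is assumed to vary like the other groups, 317 to 508 genes were called (124 to 237 positive, 183 to 271 negative), 101 to 178 in WT only, 114 to 163 in ∆ntd only and 29 to 52 in opposite directions. Responses then numbered 1056 to 1640 in WT and 1020 to 1448 in ∆ntd, strain differences 1496 to 2095 without urea and 1844 to 2416 with urea, and called mitochondrial genes 6 to 10. Thinned to the shallowest library, 403 genes were called. Class is less stable than the call, since 125 of the 573 genes were tested in all alternatives and kept their class in each. Among the genes described, the response of one strain lost its call in at least 1 alternative for LYS9, MET22, AGA1, BAR1, GPM1, RPT2, CWP1, RGI1, PDH1, ATO3, RPP2A, TIP1, HO and AQR1, and a response in the other strain passed in at least 1 for SHM2, VHT1, RPL35A, COX2, ATP6, TDH2, IDH1, IDH2, ACO1, GPD2 and RPT1.

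Replicate numbers did not pair the cultures (correlations of same-numbered RNA deviations between −0.0299 and 0.056). With a replicate block 581 genes were called in RNA, 564 of them among the 573. For footprints the 442 calls became 138 with a replicate block, 668 with limma-voom and 12 to 2589 with a library left out, and the cause was not tested.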

Other observations

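Over all genes tested, 10.4% were called, 4.37% with a higher and 6.07% with a lower response in ∆ntd. The shares called were 34.8% for oxidative stress genes, 28.6% for inositol and phospholipid genes and 20% for trehalose and glycogen genes. They were 20% for histone genes and 8.33% for protein glycosylation genes. Of 23 oxidative stress genes, 5 were called with a higher and 3 with a lower response in ∆ntd, and 8 rose in WT against 4 in ∆ntd. Trehalose and glycogen genes gave 2 calls in each direction among 20 tested. Inositol and phospholipid genes gave 1 call with a higher and 3 with a lower response in ∆ntd among 14, and protein glycosylation genes gave 4 calls among 48, all with a lower response. With DESeq2 the calls in these lists numbered 2, 1, 2 and 1, and with a library left out they fell to as few as 2, 3, 2 and 1. Histone genes fell in both strains, 7 of 10 in WT and 9 of 10 in ∆ntd, and 2 were called with the lower response in ∆ntd. Of 20 genes for subunits of RNA polymerases I and III, 9 rose in WT and 7 in ∆ntd, and the difference was called for 0 of them by edgeR or DESeq2, with 1 at an unadjusted p under 0.05.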
